A study of Saccharomyces cerevisiae S288C with 32 samples.

Results

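The genes described here are the 46 proteasome genes of Saccharomyces cerevisiae, taken by name from a list and matched to the count table through the RefSeq R64 annotation, out of 6084 records that matched a gene. They are 14 subunits of the core particle (7 of the alpha rings and 7 of the beta rings), 10 of the base and 9 of the lid of the regulatory particle, 12 assembly factors and activators, and RPN4, the transcription factor of the proteasome genes. All 46 were found (ADC17 under its other name TMA17), none overlaps another annotated gene, and all passed the filter on low counts in every fit.

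The proteasome degrades proteins marked with ubiquitin. A barrel of alpha and beta rings, the core particle, holds the protease sites of the beta subunits PRE2, PRE3 and PUP1. The regulatory particle caps it: the base unfolds substrates with a ring of RPT ATPases, and the lid removes ubiquitin through RPN11. In yeast, Rpn4 binds an element in the promoters of these genes and is itself degraded by the proteasome, so that a loss of proteasome capacity raises the supply of subunits. Heat shock factor Hsf1 acts on the RPN4 promoter.

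The 32 libraries of poly(A) RNA fall into 8 groups of 4. Strain S288C as wild type (WT) and the zuo1 mutant were sequenced on flowcell 1, and WT and the not5 mutant on flowcell 2. Each was grown in YPD at room temperature and given sterile water (vehicle) or 2 mg/mL L-azetidine-2-carboxylic acid (abbreviated AZC; cells build it into proteins where proline belongs) for 45 minutes. ZUO1 encodes a J-domain co-chaperone on ribosomes, and NOT5 belongs to Ccr4-Not, the complex that removes poly(A) tails. The labels name no further allele and do not say how the mutants were made. The 4 libraries are named biological replicates, with no word on separate cultures, and p-values therefore reflect only how these libraries vary. Each mutant is compared with the WT of its own flowcell, and no level is tested across flowcells except the AZC response of WT.

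Library totals ran from 22152108 to 31485394 counts for flowcell 1 and from 58229383 to 97010130 for flowcell 2, and single members had 246 to 94040 counts. ZUO1 had 0 to 3 counts in the zuo1 libraries against 25775 to 33003 in WT with vehicle, and NOT5 had 0 in every not5 library against 10967 to 17767 in WT. LEU2, a leucine synthesis gene, was listed at 0 in WT and zuo1 and had 1378 to 2311 counts in the not5 libraries, so not5 and LEU2 cannot be told apart in the comparisons of not5 with WT. Ribosomal RNA records held 0.554 to 3.87% of counts in WT, 0.648 to 1.47% in zuo1 and 2.81 to 13.8% in not5. In these bulk samples a lower share of cells with a transcript cannot be told apart from less of it per cell, nor a change of poly(A) tail length that alters selection from a change in level.

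The promoter element of the proteasome genes was read in the R64 genome. The letters GGTGGCAAA were searched on both strands in the 300 bases before each start codon. They were present for 27 of the 33 subunit genes (81.8%), for 1 of the 12 assembly factors and activators (8.33%, ECM29), and for 72 of 5961 protein-coding genes (1.21%). The matches lay 76 to 183 bases before the start codon, with a median of 122 for the far end, and 20 of the 28 ran in the orientation of the gene. Below are those of 7 members whose levels are described library by library, as RefSeq R64 has them, on the strand that carries the element, with the element in capitals.
ECM29, chrVIII:39943-39971, plus strand: gccttttcttGGTGGCAAAaaaaaggtac
PRE8, chrXIII:86841-86869, minus strand: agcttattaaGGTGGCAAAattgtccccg
RPN1, chrVIII:164838-164866, minus strand: tgtgttttacGGTGGCAAAaggcgagcac
RPN6, chrIV:286790-286818, minus strand: tggttccaagGGTGGCAAAtgttggtaga
RPN9, chrIV:1322086-1322114, plus strand: gctttcatccGGTGGCAAAagtaagaaca
RPT1, chrXI:174048-174076, minus strand: ttagttttcgGGTGGCAAAattcggtaat
RPT2, chrIV:437906-437934, plus strand: gtttttctccGGTGGCAAAtgtctctttt
The RPT1 element is the only one of these 7 that runs against its gene. PRE5, PUP1 and RPN8 lack the first G and hold only the last 8 letters, GTGGCAAA, which 158 of the 5961 genes hold (2.65%). The PRE5 match is shown for comparison with those above.
PRE5, chrXIII:901553-901580, plus strand: ctattatagaGTGGCAAAattaaaaatt

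RPN4 itself does not hold the element in this window. It was the only member with the heat shock element (GAA, TTC and GAA in a row, each 2 bases from the next) within 300 bases, which 52 of the 5961 genes hold (0.872%). In a window of 600 bases, held by 101 genes (1.69%), RPN4 had 2 matches and no other member had any. Both are shown because RPN4 is the regulator of the set, on the plus strand and with the element in capitals; RPN4 is encoded on the minus strand (YDL020C, chromosome IV, 415113 to 416708).
RPN4, 21 to 9 bases before the start codon, chrIV:416709-416737: gattgcttGAAAATTCTAGAAaacttttg
RPN4, 348 to 336 bases before the start codon, chrIV:417036-417064: ccgaaacgGAACTTTCTAGAAccatcact
The stress response letters AGGGG, bound by Msn2 and Msn4, stood within 300 bases of 10 of the 46 members (21.7%) and of 1321 of all 5961 genes (22.2%). A match is a description of letters and not of binding.

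In WT, AZC raised the mRNAs of nearly the whole complex. On flowcell 1, 44 of the 46 members rose and 1 fell at an adjusted p under 0.05 (edgeR's quasi-likelihood test, Benjamini-Hochberg adjustment over all genes tested, as in all that follows), where 33.3% of all tested genes rose and 31.3% fell. The median log2 fold change of the members was 0.77, against 0.02 for all genes. On flowcell 2, 43 rose and 2 fell, against 30.2% and 35.2% of all genes, with a median of 0.63 against -0.03. The treated libraries lay wholly above the untreated ones for 44 members on flowcell 1 (30.5% of genes) and 43 on flowcell 2 (31.8%), and wholly below for 1 (27.8%) and 2 (29.9%). In zuo1, 3 members rose and 0 fell, against 2.25% and 0.519% of genes, with a median of 0.16 against -0.02. In not5, edgeR called 0 of 46 members and 0.0% of genes in each direction, and the members' median was 0.04 against 0.00 for all genes.

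The difference between the mutants' and the WT response was tested directly as an interaction. The log2 AZC response was lower in zuo1 than in WT for 42 members and higher for 0, against 26.7% and 23.4% of genes, with a median difference of -0.67 (all genes -0.05). It was lower in not5 for 43 members and higher for 1 (POC4, which fell in WT), against 22.7% and 26.5%, with a median difference of -0.60 (all genes 0.04). In 1 fit of all 32 libraries the calls of RPN13 (-0.34, edgeR adjusted p = 0.0763) and SEM1 (-0.37, adjusted p = 0.132) in not5 were lost. With DESeq2's test those of HSM3 (adjusted p = 0.0654), RPN14 (adjusted p = 0.0797) and RPT4 (adjusted p = 0.0767) in zuo1 were lost. As each mutant shares its WT libraries with the WT response, the size of the difference for a gene is not independent of that gene's WT response.

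The part of all counts that went to the other 45 members, without RPN4, is a level against library totals, with no TMM factors. In WT of flowcell 1 it was 0.897 ± 0.0363% with vehicle and 1.58 ± 0.0762% with AZC (mean ± SD, n = 4). In zuo1 it was 1.02 ± 0.0233% and 1.096 ± 0.0355%. On flowcell 2 it was 0.917 ± 0.034% and 1.44 ± 0.0154% in WT, and 1.75 ± 0.112% and 1.79 ± 0.097% in not5. On this scale untreated zuo1 stood above untreated WT and untreated not5 above treated WT, whereas the TMM-scaled levels of the subunits given below have the opposite order in both cases.

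**Figure D1:**
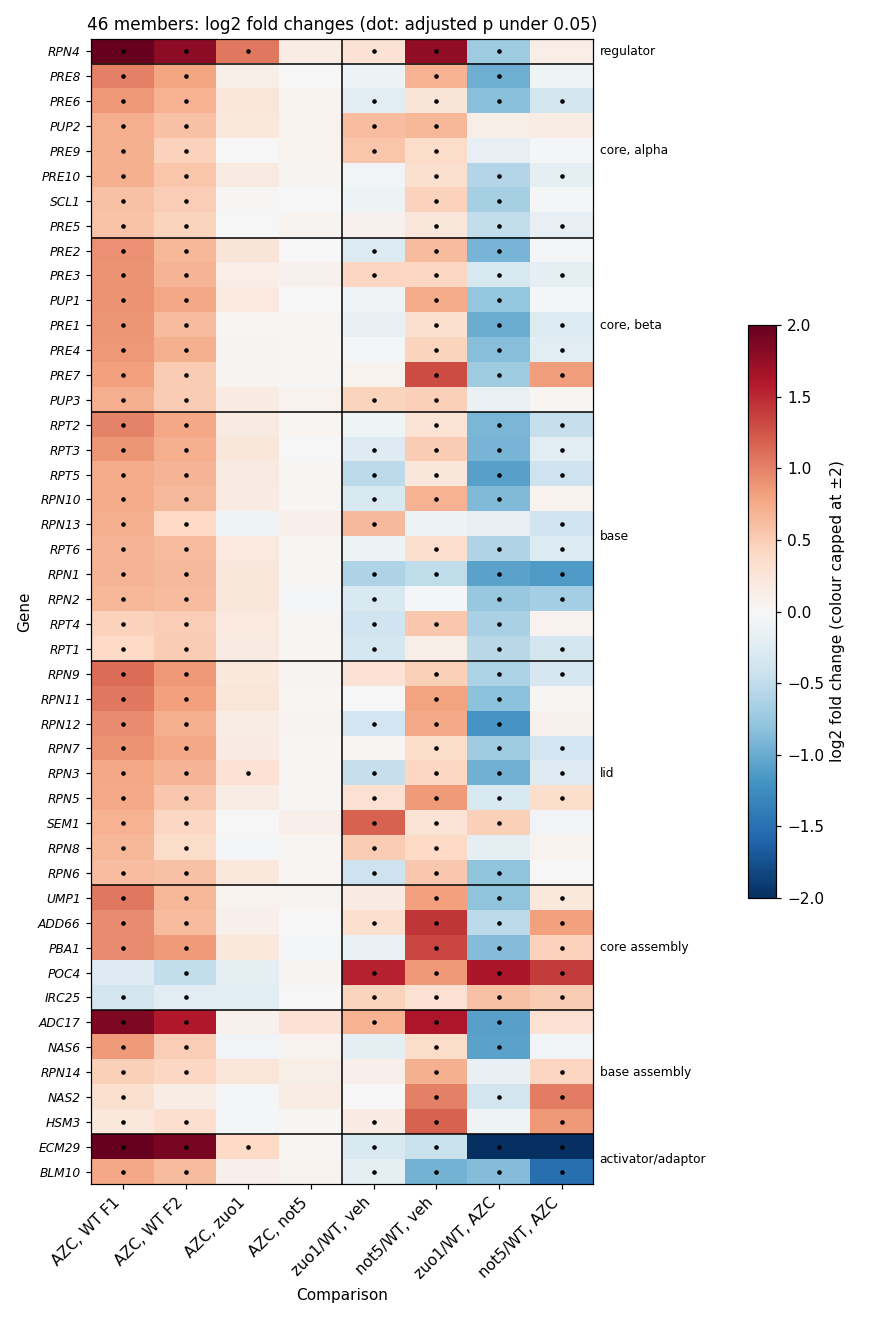
Log2 fold changes of the 46 members (grouped by particle) in 8 comparisons, colour limited to ±2, with a dot where edgeR's adjusted p was under 0.05. The AZC columns of WT are almost wholly positive, those of zuo1 and not5 hold 3 dots and 0 dots, and the mutant columns mix directions; scaling to library totals turns the sign of 14 members in zuo1 with vehicle, 4 in not5 with vehicle, 5 in zuo1 with AZC and 23 in not5 with AZC.

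RPN4, the regulator, rose with AZC in WT and, by less, in zuo1. Its level, in CPM (counts per library of the same size, with TMM factors over all 32 libraries), was 147, 143, 124 and 119 in WT with vehicle on flowcell 1 and 644, 599, 536 and 447 with AZC. In zuo1 it was 186, 163, 153 and 148 with vehicle and 348, 326, 321 and 350.2 with AZC. The treated libraries lay above the untreated ones in both strains, and every treated zuo1 library lay below every treated WT library. The log2 fold change was 2.05 ± 0.11 (SE) in WT, or 4.13-fold (edgeR adjusted p = 1.60e-11), and 1.05 ± 0.11 in zuo1, or 2.07-fold (adjusted p = 2.20e-06). The difference of the responses was -0.998 ± 0.15 (edgeR adjusted p = 2.52e-05).

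On flowcell 2 RPN4 stood at 134, 130.5, 127 and 124.5 CPM in WT with vehicle and at 455, 436, 463 and 472 with AZC, a log2 fold change of 1.78 ± 0.09 (3.44-fold, edgeR adjusted p = 5.22e-10). The not5 libraries held 387.5, 517, 431 and 461 CPM with vehicle and 416, 552, 476 and 547 with AZC. All untreated not5 libraries were above untreated WT, and they overlapped the treated WT libraries. RPN4 was higher in not5 than in WT with vehicle by 1.77 ± 0.09 (3.40-fold, edgeR adjusted p = 8.24e-11), and with AZC the log2 difference was 0.14 (adjusted p = 0.176), or 0.67 and called higher with library totals (adjusted p = 4.94e-06). AZC gave a log2 fold change of 0.15 ± 0.09 in not5 (edgeR adjusted p = 0.999), positive in all 4 pairs of equal number (0.10 to 0.25), and the response differed from that of WT by -1.63 ± 0.13 (adjusted p = 1.73e-07). With vehicle, zuo1 exceeded WT in RPN4 by 0.29 ± 0.11 (adjusted p = 0.0256), a call that 4 of the 8 fits without 1 library did not keep, those without WT libraries 3 and 4 and zuo1 libraries 1 and 2 (highest adjusted p 0.135).

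**Figure D2:**
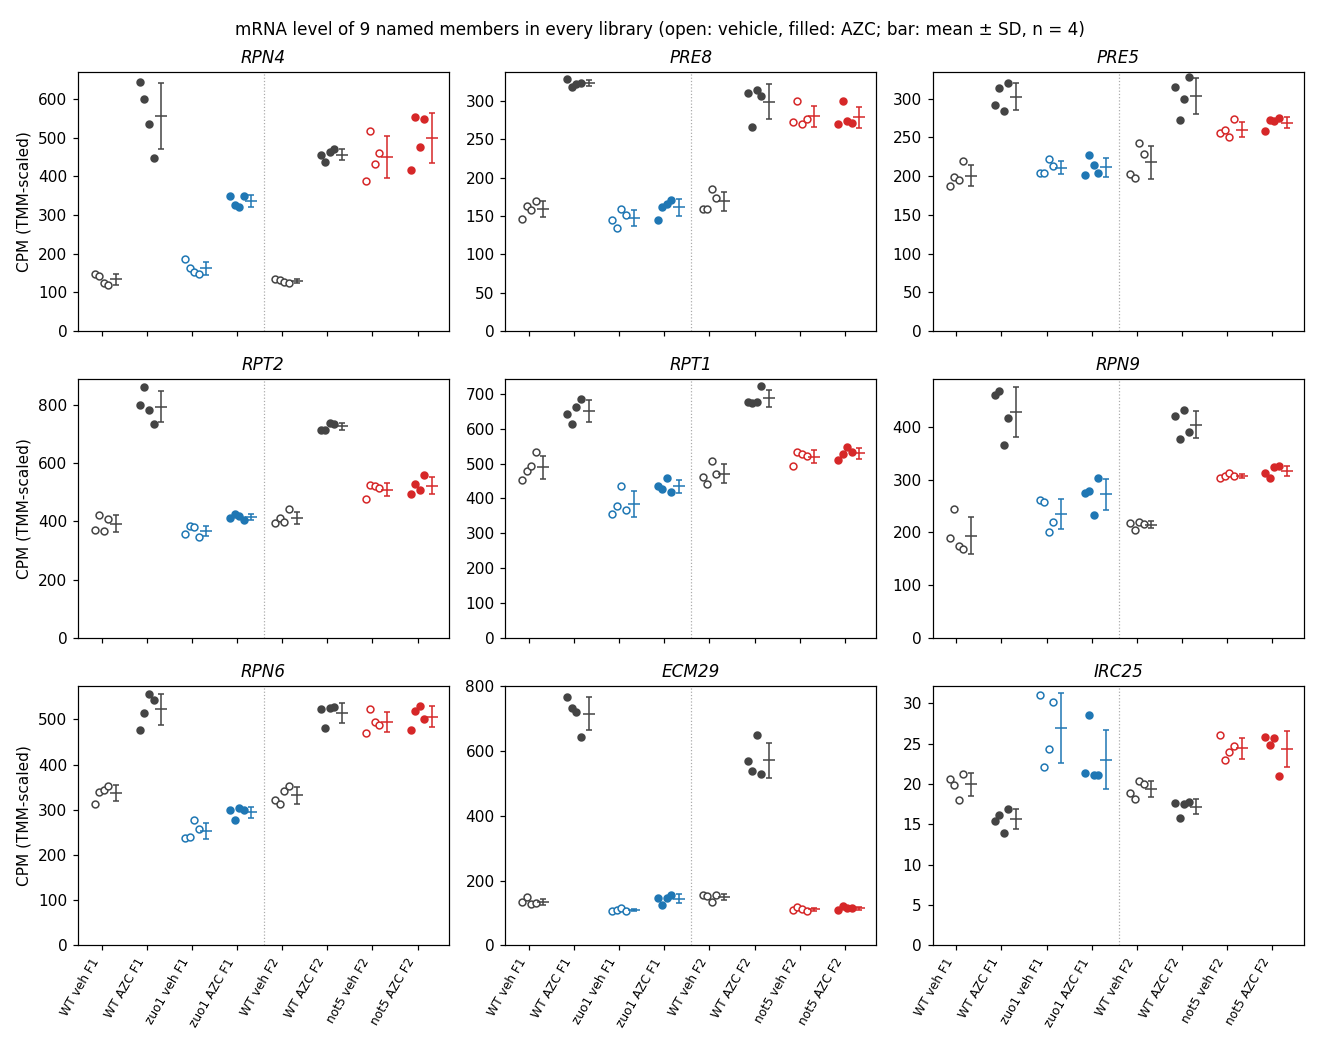
CPM of RPN4 and 8 other members in each of the 32 libraries, 1 point a library, by group. RPN4 lies between 119 and 147 in WT with vehicle on flowcell 1, between 447 and 644 with AZC, and between 387.5 and 552 in all 8 not5 libraries.

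The 14 core particle genes all rose with AZC in WT on both flowcells, with medians of 0.84 and 0.61. PRE8, an alpha-ring subunit (YML092C, chromosome XIII, 85987 to 86739), had the largest change of the core on flowcell 1. It went from 146, 162, 158 and 169.8 CPM with vehicle to 328, 318, 323 and 324 with AZC. The groups did not overlap (log2 fold change 1.005 ± 0.07, edgeR adjusted p = 2.84e-10). The zuo1 libraries held 145, 134, 159.5 and 151 CPM with vehicle and 145, 162, 166 and 171 with AZC, overlapping each other and WT with vehicle. On flowcell 2 PRE8 was at 159, 159, 185 and 173 CPM in WT and 311, 265, 314 and 306 with AZC (0.79 ± 0.07, edgeR adjusted p = 9.00e-08). In not5 it was at 273, 300.2, 270.0 and 277 CPM with vehicle and 269, 299.5, 274 and 271.5 with AZC, above untreated WT in every library and not apart by treatment.

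PRE5, another alpha subunit (YMR314W, chromosome XIII, 901709 to 902413), had the smallest change of the core. WT on flowcell 1 went from 188, 199, 196 and 220.0 CPM to 292, 314, 284 and 321 with AZC, again without overlap (0.58 ± 0.07, edgeR adjusted p = 4.78e-07). In zuo1 the values were 204, 204, 222 and 213 with vehicle and 201, 228, 214 and 204 with AZC. On flowcell 2 WT had 202, 197, 243 and 229 CPM with vehicle and 315, 273, 299 and 328 with AZC (0.44 ± 0.07), and not5 had 256, 259, 251 and 273 with vehicle and 258, 273, 271 and 275 with AZC. Within the core, then, the WT response on flowcell 1 ranged from 0.58 to 1.005 on the log2 scale.

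PRE7, a beta-ring subunit (YBL041W, chromosome II, 141247 to 141972), stood apart from the other core genes in not5. It held 251, 258, 287 and 285 CPM in untreated WT on flowcell 2 and 401, 381, 373 and 420.2 with AZC. In not5 it held 643, 733, 698 and 672 CPM with vehicle and 672, 742, 705 and 675.5 with AZC. Every not5 library was above every WT library, treated or not, and the level with vehicle was 2.48-fold that of WT (log2 1.31 ± 0.06, edgeR adjusted p = 3.27e-11). In zuo1 PRE7 was at 250.3 to 257 CPM with vehicle and 231 to 315 with AZC, and neither zuo1 against WT with vehicle nor AZC in zuo1 was called.

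All 10 base genes rose in WT on both flowcells, with medians of 0.71 and 0.64. RPT2, an ATPase of the base ring (YDL007W, chromosome IV, 438047 to 439360), went from 369, 423, 368 and 409.9 CPM to 798, 862.5, 781 and 734 in WT on flowcell 1, without overlap (1.00 ± 0.07, edgeR adjusted p = 1.01e-09). Its zuo1 values were 356, 383, 380.0 and 347 with vehicle and 413, 427, 417 and 405 with AZC. These did not overlap either, but the difference was not called. On flowcell 2 WT went from 394, 413, 399 and 441 CPM to 715, 714, 738.5 and 736 (0.78 ± 0.06), and not5 had 477, 525, 522 and 513.5 with vehicle and 496, 528, 509 and 559.6 with AZC, between the WT groups.

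RPT1, another ATPase of the ring (YKL145W, chromosome XI, 174213 to 175616), had the smallest base response, from 453, 479.5, 493 and 532 CPM to 641, 613.5, 661 and 685.5 in WT on flowcell 1 (0.39 ± 0.08, edgeR adjusted p = 0.000196). In zuo1 it was at 354.5, 378, 437 and 366 CPM with vehicle and 437, 427, 460.0 and 417.5 with AZC. Untreated zuo1 lay below untreated WT in every library. Scaled to library totals, this log2 difference was -0.10 and was not called (edgeR adjusted p = 0.311). On flowcell 2 WT had 462, 442, 508.5 and 471 CPM and, with AZC, 675, 673, 678 and 723 (0.51), and not5 had 494, 534, 528 and 522 with vehicle and 509, 528, 547 and 532 with AZC.

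RPN1, a large scaffold of the base that receives ubiquitin-like domains (YHR027C, chromosome VIII, 161730 to 164711), was the most abundant member by CPM in WT of those described here. It went from 788, 834, 768 and 771 CPM to 1285, 1246, 1316 and 1264 with AZC on flowcell 1, and stood at 477, 531, 563 and 475 in untreated zuo1 and 621, 549.8, 632 and 585 in treated zuo1. Both zuo1 groups were below both WT groups. On flowcell 2 it went from 701.5, 719.5, 715 and 739 CPM to 1179, 1110.0, 1223 and 1143 in WT, while not5 held 509, 543, 524 and 503 with vehicle and 499, 537, 538 and 526 with AZC. RPN1 was lower in not5 than in WT with vehicle, with a log2 fold change of -0.50 ± 0.05, whose sign turned to 0.03 with library totals as the scaling.

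All 9 lid genes rose in WT on both flowcells, with medians of 0.78 and 0.68. RPN9, a structural lid subunit (YDR427W, chromosome IV, 1322205 to 1323386), went from 189, 244, 173.5 and 169 CPM to 459, 468, 366 and 417 in WT on flowcell 1 (1.12 ± 0.12, edgeR adjusted p = 3.47e-07). In zuo1 the values were 261, 257, 201 and 220.2 with vehicle and 275, 278, 233 and 303 with AZC. The WT groups were apart, while the zuo1 groups overlapped. On flowcell 2 WT went from 217, 205, 220.0 and 217 CPM to 420.0, 376, 431 and 389 (0.87 ± 0.05), and not5 had 303.5, 306, 312 and 306 with vehicle and 312, 303, 323 and 325 with AZC. RPN11, the deubiquitinase of the lid, rose by 1.05 and 0.81 in WT on flowcells 1 and 2.

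RPN6, which helps to clamp lid, base and core together (YDL097C, chromosome IV, 285391 to 286695), had the smallest lid response on flowcell 1. It went from 312, 339, 343.5 and 353 CPM to 477, 514, 556 and 542 (0.62 ± 0.07, edgeR adjusted p = 4.09e-07). In zuo1 it was at 237, 241, 276 and 257 CPM with vehicle and 299.6, 277, 304 and 298.5 with AZC, all below untreated WT. Scaled to library totals, the log2 difference of untreated zuo1 from WT was -0.16 and was not called (edgeR adjusted p = 0.0637). On flowcell 2 WT went from 321, 312, 342 and 352 CPM to 522, 480.5, 525 and 528.5 (0.59), and not5 held 471, 523.5, 494 and 487 with vehicle and 477, 518, 529 and 502 with AZC. The not5 libraries of both treatments overlapped treated WT.

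The assembly factors and activators were the most varied class: 10 of 12 rose and 1 fell in WT on flowcell 1 (median 0.81), and 9 rose and 2 fell on flowcell 2 (median 0.56). ECM29, an adaptor that tethers core and regulatory particle (YHL030W, chromosome VIII, 40084 to 45690), had the largest response of all 46 members. It went from 133, 148, 128 and 131 CPM to 766.5, 732, 719 and 645 in WT on flowcell 1, a 5.24-fold change (2.39 ± 0.08, edgeR adjusted p = 6.41e-14). In zuo1 it was at 105, 109, 114 and 106 CPM with vehicle and 147, 124, 147 and 156 with AZC, a smaller but called change (0.40 ± 0.08, adjusted p = 0.00487). Treated zuo1 overlapped untreated WT. The difference of the responses was -1.99 ± 0.11.

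On flowcell 2 ECM29 stood at 155, 151.5, 135 and 154 CPM in WT and at 568, 538, 649 and 530.0 with AZC (3.74-fold, 1.90 ± 0.07, edgeR adjusted p = 2.76e-11). The not5 libraries held 109, 117, 113 and 107 CPM with vehicle and 109, 119.9, 116 and 115 with AZC, all below untreated WT and all far below treated WT. Unlike RPN4, ECM29 was thus not elevated in untreated not5. It was lower there than in WT, at -0.45 ± 0.07 (edgeR adjusted p = 1.47e-05), a sign that turned to 0.08 with library totals, and the log2 difference was -0.09 (adjusted p = 0.237) with an offset that removes each library's trend with coding length, added after the data were seen.

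ADC17, a stress-induced chaperone of base assembly (YDL110C, chromosome IV, 264512 to 264964), went from 17.2, 11.02, 15.3 and 18.75 CPM to 59.6, 52.1, 54.5 and 64.1 in WT on flowcell 1 (3.66-fold, 1.87 ± 0.14, edgeR adjusted p = 2.85e-09). In zuo1 it held 21.35, 24.4, 29.6 and 25.0 CPM with vehicle and 21.7, 28.1, 27.0 and 29.7 with AZC, all above untreated WT and all below treated WT. On flowcell 2 the WT values were 16.7, 21.4, 17.2 and 20.75 CPM and, with AZC, 56.0, 54.1, 63.8 and 62.5 (3.03-fold, 1.60 ± 0.23). In not5 they spread from 40.9 to 85.0 CPM with vehicle and from 43.9 to 100.3 with AZC, with replicate 1 lowest and replicate 2 highest in both groups, so not5 overlapped treated WT.

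IRC25 and POC4 encode the partners of a chaperone of alpha-ring assembly, and they did not share the rise. IRC25 (YLR021W, chromosome XII, 183623 to 184162) was at 20.7, 19.8, 18.1 and 21.2 CPM in untreated WT on flowcell 1 and at 15.4, 16.2, 14.0 and 16.9 with AZC, so it fell without overlap (-0.37 ± 0.12, edgeR adjusted p = 0.0146). In zuo1 it held 31.0, 22.1, 24.4 and 30.1 CPM with vehicle and 21.3, 28.5, 21.1 and 21.1 with AZC. The flowcell 2 values were 18.9, 18.2, 20.4 and 20.0 CPM in WT, 17.6, 15.8, 17.6 and 17.75 with AZC, 26.05, 23.0, 24.0 and 24.7 in not5 and 25.8, 24.8, 25.6 and 21.0 in not5 with AZC. There the fall in WT was -0.21 ± 0.07 (edgeR adjusted p = 0.017); it was lost without WT AZC library 2 (adjusted p = 0.0574), with library totals (-0.22, adjusted p = 0.0568), in 1 fit of all 32 libraries (-0.17, adjusted p = 0.144) and with the offset for coding length, without (-0.10, adjusted p = 0.23) or with a block.

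POC4 (YPL144W, chromosome XVI, 280480 to 280926) was at 18.7, 13.9, 14.2 and 16.3 CPM in untreated WT on flowcell 1 and at 11.04, 14.5, 11.7 and 16.02 with AZC, which was not called (-0.26 ± 0.14, edgeR adjusted p = 0.103). With the length offset (-0.24, adjusted p = 0.0475) or with the library number as a block, a fit that called 36.1% of genes higher and 33.8% lower, it was called lower (-0.27, adjusted p = 0.0477). In zuo1 it held 41.3, 49.2, 42.8 and 49.5 CPM with vehicle and 40.1, 47.8, 33.9 and 40.7 with AZC, above every WT library. On flowcell 2 POC4 fell from 20.6, 20.7, 25.6 and 23.4 CPM to 18.2, 14.98, 14.7 and 18.4 in WT (-0.49 ± 0.10, edgeR adjusted p = 0.000762), and not5 held 47.3, 38.6, 38.3 and 43.6 with vehicle and 45.2, 36.9, 43.8 and 47.6 with AZC. POC4 was the 1 member whose log2 response was called higher in not5 than in WT (0.54 ± 0.15, edgeR adjusted p = 0.00675). Its WT response was a fall, and in not5 the mean log2 ratio of the 4 pairs was 0.047, with 2 pairs higher.

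UMP1, the maturation factor of the core particle, rose with the subunits, from 51.3, 52.7, 49.2 and 57.9 CPM to 109.7, 112, 107 and 114 in WT on flowcell 1 (1.05 ± 0.07). BLM10, an activator that caps the core (YFL007W, chromosome VI, 123479 to 129910), was at 342, 354, 326.5 and 325 CPM with vehicle and 601, 557, 588 and 589.5 with AZC. Neither gene's groups overlapped. NAS2, a base assembly chaperone, rose by 0.32 on flowcell 1, a call kept in 5 of the 8 fits without 1 library, and was not called on flowcell 2 (0.15), where a block for library number within genotype called it higher (edgeR adjusted p = 0.0115; 35.3% of genes higher and 40.3% lower), as did the fit of only the groups compared (0.19, adjusted p = 0.0335) and the length offset without (0.24, adjusted p = 0.0145) and with a block. HSM3, another of these chaperones, rose by 0.21 on flowcell 1 and by 0.33 on flowcell 2.

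The AZC responses of the mutants were small for most members. In zuo1 the 3 genes that rose were RPN4, ECM29 and RPN3, a lid subunit (0.28 ± 0.07, edgeR adjusted p = 0.0453). The RPN3 call was kept in 3 of the 8 fits without 1 library (adjusted p 0.0373 to 0.132). It was lost with library totals (0.24, adjusted p = 0.145) and with the offset for coding length (0.26, adjusted p = 0.062). Without zuo1 vehicle library 3 the test called 7 members higher, against 2.9% of genes, and DESeq2 called 9, against 3.06%. An unadjusted edgeR p under 0.05 was found for 20 of the 46 and for 698 of all 5782 genes. The treated zuo1 libraries lay wholly above the untreated ones for 14 members, against 4.65% of genes, wholly below for 0, against 2.35%, and were higher in all 4 pairs of equal number for 23 members, against 12.3% of genes. These pairs rest on the number alone. The zuo1 libraries of equal number correlated by 0.07 to 0.58 and were not taken as pairs in this report.

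In not5 the 46 log2 fold changes were positive for 40 members and negative for 6, where the median of all genes was 0.00. The highest were those of ADC17 (0.29 ± 0.22) and RPN4 (0.15 ± 0.09), and the others lay between -0.03 and 0.15. Members share these libraries, so their signs are not independent. No member had an unadjusted edgeR p under 0.05 (62 of all genes had), DESeq2 also called 0, and no member's groups were apart, against 0.427% of genes higher and 0.41% lower. Equal-numbered not5 libraries varied together; with a block for number within genotype, edgeR called 1.28% of all genes higher and 0.0171% lower and still 0 members. Treated not5 was higher in all 4 pairs for 16 members, against 15.6% of genes.

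In the interaction of zuo1 with AZC the largest differences were those of ECM29, ADC17 (-1.79 ± 0.20), RPN4 and UMP1 (-0.97). The 4 members without a call were IRC25 (0.14), POC4 (0.09), RPT1 (-0.21) and NAS2 (-0.36). NAS2 kept this outcome in 4 of 9 other settings and was called lower in the rest (both blocks, library totals, 1 fit of all libraries, and the length offset with a block), and RPT1 kept it in 7 of 9. The calls of RPT4, HSM3, RPN14 and SEM1 were kept in 3, 3, 4 and 7 of the 16 fits without 1 library. In the interaction of not5 with AZC the largest differences were those of ECM29 (-1.86 ± 0.10), RPN4, ADC17 (-1.31 ± 0.31) and PBA1 (-0.88), a chaperone of core assembly. IRC25 (0.21) and NAS2 (0.00) had no call there, and the block within genotype called IRC25 higher (edgeR adjusted p = 0.0438; 35.5% of genes higher and 29.5% lower). Without not5 AZC library 4 the test called 2 members with a higher log2 response in not5, in place of 1, against 24.6% of genes.

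Levels between genes were compared as CPM per kilobase of coding sequence. The median over the 33 subunits was 262 ± 7.58 CPM per kb in untreated WT of flowcell 1 and 447 ± 6.07 with AZC (mean ± SD over 4 libraries). It was 251 ± 7.26 and 286 ± 15.3 in zuo1, 278 ± 11.7 and 431 ± 15.9 in WT of flowcell 2, and 381 ± 14.8 and 384 ± 13.1 in not5. With library totals the order of strains turned: the medians were 234.2 and 400 in WT of flowcell 1, 267.6 in untreated zuo1, 244.3 and 366.8 in WT of flowcell 2, and 470.4 and 476.1 in not5. In untreated WT on flowcell 1, 32 of the 33 subunits lay within 2-fold of their median, and 11 of the 12 assembly factors and activators within 2-fold of theirs. The share over all genes was not computed. Among the subunits the lowest was SEM1, a small lid subunit, at 126 CPM per kb, and the highest was PRE2, a protease subunit, at 376.

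The spread between the 33 subunits differed by strain. The SD of their log2 levels was 0.33 and 0.32 in WT of flowcell 1 with vehicle and AZC, 0.34 and 0.32 in WT of flowcell 2, 0.48 and 0.44 in zuo1, and 0.48 and 0.48 in not5. These levels hold no correction for a trend of the mutant over WT difference with coding length. Across the 46 members its Pearson r was -0.57 in untreated zuo1 and -0.47 in untreated not5. The part of length in the spread was not tested. In untreated not5 the levels ran from 174 CPM per kb (RPN1) to 946 (PRE7). The 12 assembly factors and activators were much lower, with class medians of 40.9 CPM per kb in untreated WT on flowcell 1 and 92.8 with AZC, and 88.7 in untreated not5. ECM29 was the lowest of them in untreated WT, at 24.0 CPM per kb.

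**Figure D3:**
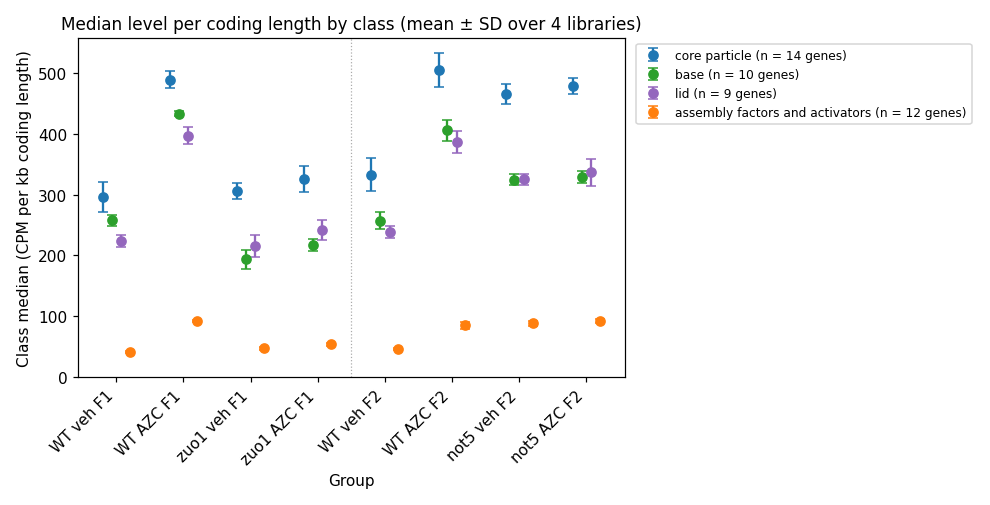
Median CPM per kb of coding sequence of each class in every library, by group. The core, base and lid medians in WT of flowcell 1 move from 296, 258 and 224 with vehicle to 489, 433 and 397 with AZC, and in zuo1 from 306, 193 and 216 to 326, 217 and 242.

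Untreated zuo1 and untreated WT differed in both directions, with shares of members called close to those of all genes. Of the 46 members, 14 were higher and 14 lower, against 30.1% and 29.1% of genes, with a median of -0.05 (all genes 0.01). The base was mostly lower (7 of 10 lower, 1 higher, median -0.30), the core had 4 higher and 2 lower of 14, the lid 3 and 3 of 9, and the assembly class 5 and 2 of 12. The base pattern depended on the scaling. With library totals its members RPT1 (-0.10), RPT3 (-0.016), RPT4 (-0.15), RPN2 (-0.064) and RPN10 (-0.053) lost the lower call, and RPN1 and RPT5 kept it. The 4 highest were POC4 (1.54 ± 0.13, 2.91-fold, edgeR adjusted p = 7.91e-08), SEM1 (1.17 ± 0.19, adjusted p = 6.03e-05), ADC17 (0.70) and RPN13, a ubiquitin receptor of the base (0.65). With an offset for coding length POC4 (1.04) and SEM1 (0.40) kept the call, and ADC17 (0.22, edgeR adjusted p = 0.264) and RPN13 (0.16, adjusted p = 0.106) lost it. The other higher members were the core subunits PUP2 (0.62), PRE9 (0.56), PUP3 (0.44) and PRE3 (0.44), the lid subunits RPN8 (0.51) and RPN5 (0.30), the assembly factors IRC25 (0.44), ADD66 (0.33) and HSM3 (0.16), and RPN4. The 4 lowest were RPN1 (-0.62 ± 0.08), RPT5, an ATPase of the base (-0.52), RPN3 (-0.46) and RPN6 (-0.41). All of these members kept their sign with library totals, but RPN6 lost its call (-0.16, edgeR adjusted p = 0.0637). That scaling moved the median of all genes to 0.25 and gave 23 members higher and 3 lower, against 50% and 13.6% of genes. The weaker calls of PRE6, an alpha subunit, and RPN5, a lid subunit, were kept in 5 and 4 of the 8 fits without 1 library, that of ADD66, a core chaperone, in 4, and that of HSM3 in 0. The block for number added RPN9 (0.29, edgeR adjusted p = 0.00536) and UMP1 (0.17, adjusted p = 0.0326) to the higher members, in a fit that called 32.9% of genes higher and 31.6% lower; with the offset for coding length UMP1 was called lower instead (-0.34, adjusted p = 0.00162).

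The 2 untreated groups did not overlap for 11 members with zuo1 above (26.0% of genes) and 13 with zuo1 below (27.4%), again close to the shares of all genes. SEM1 shows the spread behind such a call. It held 40.0, 35.7, 28.7 and 31.5 CPM in untreated WT on flowcell 1 and 86.6, 88.5, 56.1 and 73.6 in zuo1. With AZC it held 60.7, 64.15, 48.0 and 50.2 CPM in WT and 74.3, 103.5, 52.0 and 75.3 in zuo1. The untreated groups were apart and the treated ones overlapped.

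The difference between zuo1 and WT went with coding length. Coding lengths ran from 270 bases (SEM1) to 6432 (BLM10), and across the 46 members the log2 fold change of untreated zuo1 over WT had a Pearson r with log2 coding length of -0.57 and a Spearman rho of -0.57. Over 5719 protein-coding genes of the same libraries r was -0.33, and the 27 members under 1 kb had a median of -0.00 and the 19 longer ones -0.20, against 0.34 and -0.12 for all genes. Members and other genes share these libraries and are not independent. With the offset for coding length 10 members were higher and 24 lower, against 28.3% and 28.8% of genes. Of the higher members, ADC17, RPN13, PRE3 (0.11), PUP3 (0.096), ADD66 (0.13) and IRC25 (0.02, edgeR adjusted p = 0.872) lost the call, as did BLM10 and RPN2 of the lower ones. The log2 difference of PRE5 turned to -0.20. The part of length in the differences between zuo1 and WT was not tested further.

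**Figure D4:**
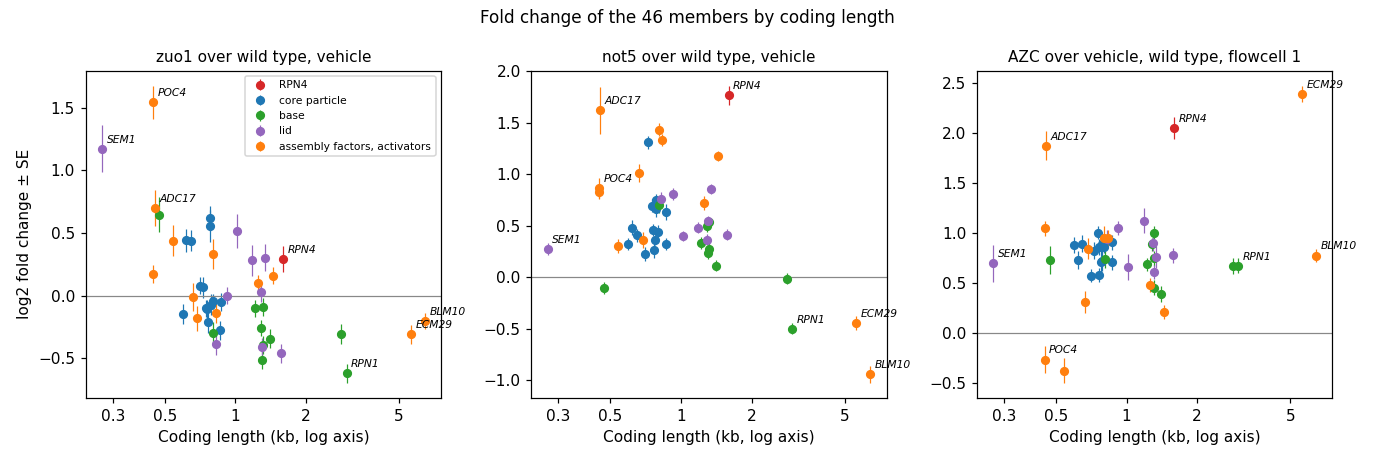
Log2 fold change (± SE) against coding length (log axis) for the 46 members, for untreated zuo1 over WT, untreated not5 over WT, and AZC in WT on flowcell 1. The members' Pearson r is -0.57, -0.47 and 0.27 in these panels, and that of all protein-coding genes, which are not drawn, is -0.33, -0.07 and 0.00. The members' Spearman rho is -0.57, -0.20 and 0.02.

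With AZC in both strains, 36 members were lower in zuo1 than in WT and 3 higher, against 35.4% and 34.0% of genes, with a median of -0.71 (all genes -0.01). The higher ones were POC4 (1.63), IRC25 (0.58) and SEM1 (0.47); the SEM1 call was kept in 5 of the 8 fits without 1 library. With the offset for coding length the SEM1 difference turned to -0.20 (edgeR adjusted p = 0.0912), and with the offset and the block for number SEM1 was called lower (adjusted p = 0.0157). The 4 lowest were ECM29 (-2.30), RPN12, a lid subunit (-1.18), ADC17 (-1.09) and RPT5 (-1.09), and the log2 difference of RPN4 was -0.71 ± 0.11 (edgeR adjusted p = 1.18e-05). The 7 members without a call lay between -0.18 (RPN8) and 0.11 (PUP2), with PRE9, RPN13, RPN14, PUP3 and HSM3 between them. With the offset RPN13 (-0.56), PUP3 (-0.40) and PRE9 (-0.34) were called lower and RPN5 lost its lower call (-0.23, edgeR adjusted p = 0.0759), which gave 38 lower and 2 higher, against 35.3% and 34.1% of genes. Library totals, which moved the median of all genes to 0.17, kept the sign of these called members and gave 33 lower and 4 higher, against 25.2% and 44.5% of genes. Every treated zuo1 library lay below every treated WT library for 36 members (32.7% of genes) and above for 2 (27.8%).

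Untreated not5 had more proteasome mRNA than untreated WT. Of the 46 members, 40 were higher and 3 lower, against 41.2% and 40.9% of genes, with a median of 0.47 (all genes 0.00). All 14 core genes (median 0.45), all 9 lid genes (0.48), 6 of 10 base genes (0.25) and 10 of 12 in the assembly class (0.84) were higher. The 4 highest were RPN4, ADC17 (1.62 ± 0.23), ADD66 (1.44 ± 0.06) and PBA1 (1.33 ± 0.06), the last 2 of which form a chaperone of the alpha ring, and PRE7 followed. The lower ones were BLM10, RPN1 and ECM29, and those without a call were RPT1 (0.11, called higher in 5 of 10 other settings), RPN2, a scaffold of the base (-0.02), and RPN13 (-0.10). The not5 libraries lay wholly above WT for 40 members (40.3% of genes) and wholly below for 3 (36.3%). BLM10 stood at 329, 328, 291 and 326.5 CPM in WT and 163, 195, 159 and 160.2 in not5 (-0.95 ± 0.08, edgeR adjusted p = 2.59e-08).

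Scaling bears on these values. With library totals the median of all genes stood at 0.53 in not5 over WT with vehicle, and that of the members at 1.00. BLM10 then was the 1 member lower (-0.42) and 43 were higher, against 19.5% and 62.5% of genes, and RPN1, RPN2, RPN13 and ECM29 changed sign. The correlation of the members' log2 fold change with coding length was -0.47 (Pearson) and -0.20 (Spearman), and -0.07 over 5780 genes. Without the not5 libraries numbered 4, whose share of ribosomal RNA was the largest, 41 members were higher and 3 lower, against 42% and 37.5% of genes. The part of LEU2 and of ribosomal RNA in these differences was not tested.

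Untreated not5 can be set beside treated WT on the same flowcell. For 19 members every untreated not5 library lay below every treated WT library (36.3% of genes) and for 9 above (36.8%). With AZC in both strains, 10 members were higher in not5 and 19 lower, against 40.7% and 38.7% of genes, with a median of -0.04 (all genes 0.02). The treated groups did not overlap for 10 members with not5 above (36.8%) and 18 with not5 below (36.2%). The assembly class had 8 higher and 2 lower of 12, the base 0 and 8 of 10, the core 1 and 6 of 14, and the lid 1 and 3 of 9. The 4 highest were POC4 (1.401), NAS2 (1.02), HSM3 (0.87) and PRE7 (0.84), followed by ADD66 (0.82), IRC25 (0.51), PBA1 (0.46), RPN14 (0.43), RPN5 (0.35) and UMP1 (0.22). The 4 lowest were ECM29 (-2.30 ± 0.07), BLM10 (-1.51), RPN1 (-1.14) and RPN2 (-0.67). These members kept their sign with library totals, which moved the median of all genes to 0.55, but RPN2 lost its call (-0.14, edgeR adjusted p = 0.0991). On that scale 23 other members (6 alpha, 5 beta, 6 base and 5 lid subunits and NAS6, a base chaperone) turned from negative to positive. The counts became 38 higher and 3 lower, against 64.6% and 15.9% of genes. Across the members this difference had a Pearson r with log2 coding length of -0.66 and a Spearman rho of -0.38, against an r of -0.12 over 5780 protein-coding genes. With the offset for coding length the members' median was -0.25 (all genes 0.02), and 9 were higher and 27 lower, against 41.1% and 38.9% of genes. The core subunits SCL1, PRE8, PRE9, PUP1 and PRE2, the lid subunits RPN8 and RPN11, and NAS6 were then called lower, between -0.12 and -0.30, and UMP1 lost its call (0.11, edgeR adjusted p = 0.0679).

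Responses were also set beside the promoter element shown above. Without RPN4, 28 members hold GGTGGCAAA and 17 do not. In WT on flowcell 1, 28 of 28 with the element rose (median 0.80), and 15 of 17 without it rose and 1 fell (median 0.73). On flowcell 2, 28 of 28 rose (0.66) against 14 of 17 with 2 falling (0.44). In zuo1 the 2 members other than RPN4 that rose, ECM29 and RPN3, both hold it, and the medians were 0.18 with the element and 0.00 without. Across the 46 members the zuo1 response had a Pearson r with log2 coding length of 0.46 and a Spearman rho of 0.63. Over 5719 protein-coding genes r was 0.19. The part of length in these medians was not tested.

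In untreated not5 against WT the order was the other way: the median was 0.42 for members with the element (24 higher, 2 lower of 28) and 0.72 for those without (15 higher, 1 lower of 17). In untreated zuo1 against WT the medians were -0.10 and 0.16. Members with the element are nearly all subunits, and most of those without it are assembly factors, so element and class cannot be told apart in these medians. Members that rose strongly without the element included UMP1 and ADC17.

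**Figure D5:**
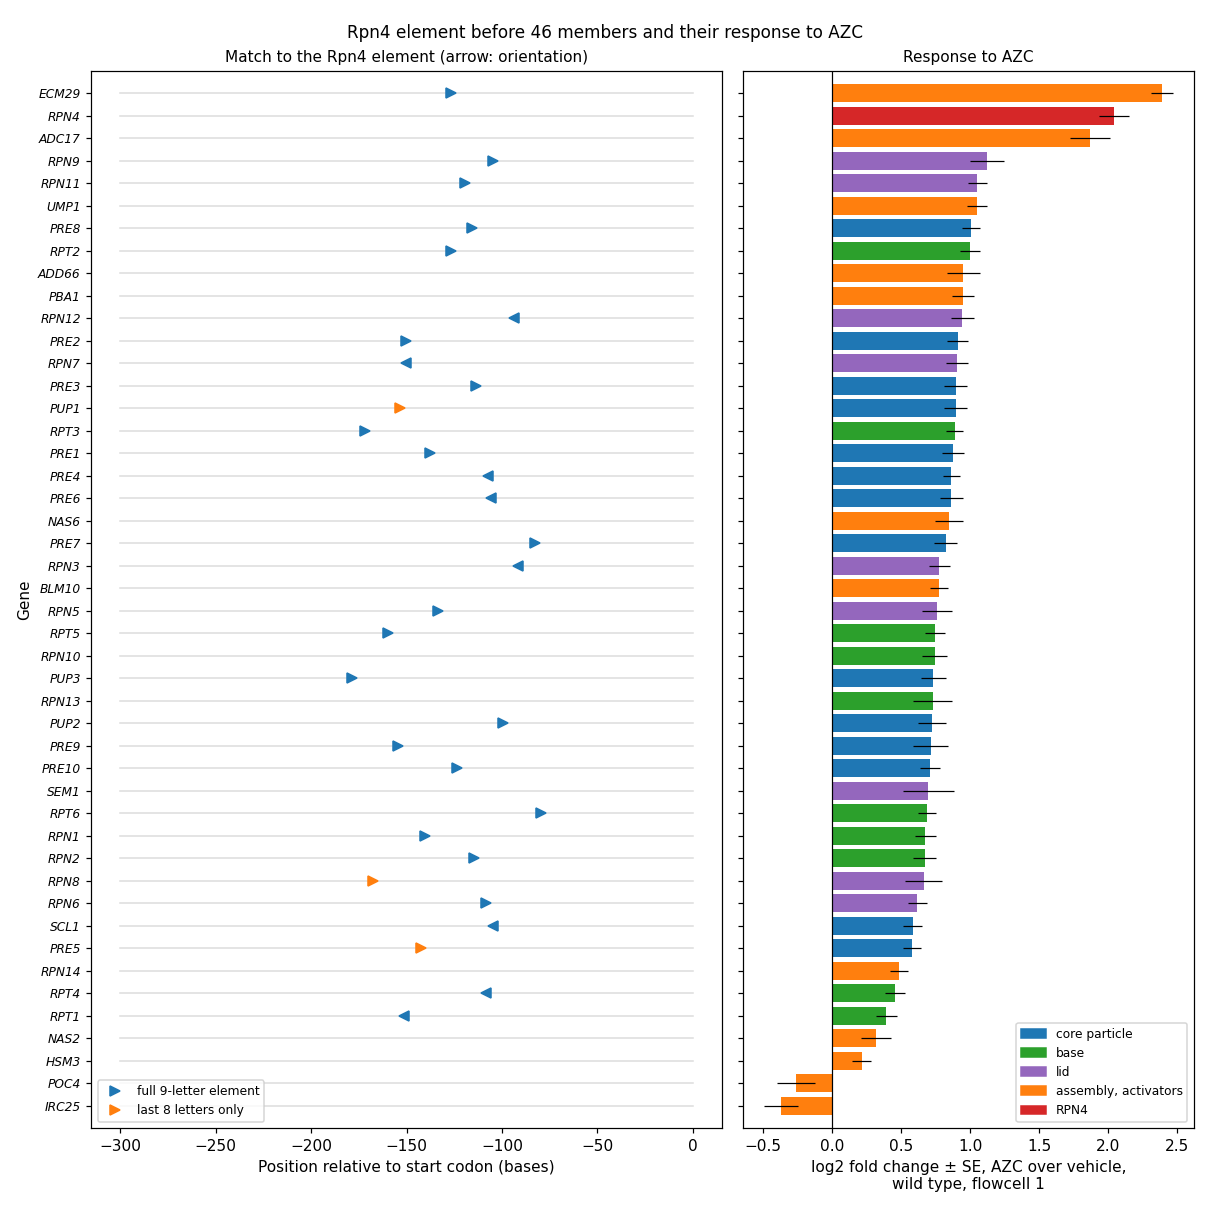
Position of the Rpn4 element before the start codon for each member that holds it, beside that member's log2 fold change with AZC in WT on flowcell 1. The elements lie between 76 and 183 bases before the start codon, and all 28 of these members rose.

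Other genes of the pathway moved in the same directions with AZC. A list of 25 holds genes that act on RPN4 or its protein (HSF1, YAP1, PDR1, PDR3, UBR2, MUB1, RAD6), 8 proteasome cofactors and 10 genes of the Cdc48 segregase, which pulls ubiquitinated proteins apart before degradation. In WT 24 rose and 1 fell on flowcell 1 (median 0.86), against 33.3% and 31.3% of all genes, and 23 rose and 1 fell on flowcell 2 (0.73), against 30.2% and 35.2%. TMC1, a zinc finger protein of the Cdc48 list, rose by 2.67, DDI1, a shuttle protein with a protease fold, by 1.83, and NPL4 and UFD1, the partners of Cdc48, by 1.54 and 1.48. VMS1, a Cdc48 partner at stalled ribosomes, fell by 0.38.

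UBR2 and MUB1, which direct Rpn4 to degradation, rose by 0.86 each in WT, and HSF1 by 0.71. In zuo1 6 of the 25 rose and 0 fell (median 0.16), against 2.25% and 0.519% of genes: TMC1 (0.64), NPL4 (0.42), DDI1 (0.35), UFD1 (0.29), OTU1, a deubiquitinase (0.28), and PDR1, a drug response factor (0.24). In not5 0 of 25 were called (median 0.03). In untreated not5 against WT, 13 were higher and 5 lower (median 0.18), against 41.2% and 40.9% of genes. The highest were SPG5 (2.25) and STS1 (1.82), which encode a stationary phase proteasome regulator and a factor for its nuclear localisation. CDC48 (-0.76) and RAD6 (-0.62), the ubiquitin-conjugating enzyme that works with Ubr2, were among the lower ones.

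The WT response was measured on both flowcells. Across the 46 members the responses correlated with r = 0.96 (Pearson) and 0.87 (Spearman), with a slope of 0.82 for flowcell 2 on flowcell 1, and 44 of 46 had the same call. The change was larger on flowcell 1 for 42 members, a count whose share over all genes was not computed. The median log2 difference, flowcell 2 minus flowcell 1, was -0.12 for the members and -0.001 for all genes. In the test of the difference edgeR called 0 members (0.809% of genes higher on flowcell 2 and 0.499% lower), 8 of 46 had an unadjusted p under 0.05, as had 1125 of all 5808 genes, and DESeq2 called 2 lower, against 2.12% of genes. The differences nearest the threshold were those of UMP1 (-0.35 ± 0.09, adjusted p = 0.0536) and ECM29 (-0.45 ± 0.12, adjusted p = 0.0559). Both passed it with library number as a block (edgeR adjusted p = 0.0467 and 0.0489; 1.77% of genes higher and 1.19% lower). A block within genotype called 5 members lower, RPN8, UMP1, ADD66, NAS6 and ECM29, where it called 5.18% of genes higher and 3.39% lower. Without WT vehicle library 4 or AZC library 4 of flowcell 1, or AZC library 3 of flowcell 2, the test called 2 members lower, against 0.857%, 3.79% and 1.87% of genes.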

How the data were processed

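Per the submitters' processing notes, the deposited table holds the authors' estimated counts per gene from Salmon 1.10.2 against R64, with reads checked by FastQC 0.12.1. Of the estimated counts 79.1% were not whole, and they were rounded. Of 6085 records 6084 matched RefSeq R64, and the other held at most 0.0179% of a library. Gene models hold coding sequence only. Per the labels' protocols RNA was poly(A)-selected, and the kit does not mark strand.

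Differences were tested per flowcell (16 libraries, terms for group alone) in edgeR 4.0.16 under R 4.3.3, by robust quasi-likelihood F tests after filterByExpr and TMM scaling, with Benjamini-Hochberg adjustment at 0.05 over the 5782 (flowcell 1) or 5849 (flowcell 2) genes tested. The 16 WT libraries (5808 genes) gave the flowcell difference. CPM used TMM factors over all 32 libraries. Errors are SE for log2 fold changes and SD for levels. Alternatives were DESeq2 1.42.0, its size factors, library totals, no filter, a replicate block, 1 fit of all libraries, only the groups compared, each library left out, and, added after the data were seen, a length offset (loess, span 0.5) and leaving out the not5 libraries numbered 4.

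The labels do not say that a number marks a shared culture. The deviations of equal-numbered libraries correlated by 0.24 to 0.46 (WT, flowcell 1), 0.27 to 0.55 (WT, flowcell 2), 0.49 to 0.92 (not5) and 0.22 to 0.38 (zuo1 and WT with vehicle), each pair over 0.1. These libraries were taken as pairs, but only the fits with a block use the pairing. Unless a block is named, the reported calls, errors and adjusted p-values come from fits with terms for group alone.

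The members, lists and tests were chosen with earlier results of these data known. Named in the text are RPN4, the members of each class with the largest and smallest AZC response in WT on flowcell 1, and in each comparison all called members if 8 or fewer, otherwise the 4 highest and lowest, with those called against the majority and those not called if 8 or fewer. PRE7, RPN1, SEM1, UMP1, BLM10, RPN11 and PRE2 were given values beyond the rule, as were members whose calls moved. Promoter letters were searched in R64 on both strands.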

Additional observations from a re-analysis of the deposited data

Results flagged for a closer look

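For RPN4 and the 8 members with the largest and smallest AZC response of their class, 72 groups of 4 libraries were checked for a library apart from the other three by Dixon's criterion (95% level). Chance finds about 1 in 20 groups, and 7 were found. On flowcell 2 the WT AZC library 2 was the lowest of its group for PRE8 (265.4 CPM), RPN6 (480.5) and IRC25 (15.79), and WT AZC library 4 the highest for RPT1 (723.3). ECM29 was lowest in WT vehicle library 3 of flowcell 2 (135). PRE8 was highest in not5 AZC library 2 (299.5), and IRC25 was highest in zuo1 AZC library 2 (28.49).

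AZC responses that differed between strains by the interaction test (edgeR, adjusted p under 0.05) are given with the log2 difference, mutant minus WT. In zuo1 42 members were lower, among them RPN4 (-0.998), PRE8 (-0.88), PRE5 (-0.57), RPT2 (-0.82), RPN9 (-0.91), RPN6 (-0.40) and ECM29 (-1.99). In not5 43 members were lower and 1 higher, with RPN4 at -1.63, PRE8 at -0.79, PRE5 at -0.38, RPT2 at -0.73, RPT1 at -0.47, RPN9 at -0.83, RPN6 at -0.55 and ECM29 at -1.86.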

How the results depend on the processing

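Of the recomputed counts and levels, 405 stayed within 1.5 times of the reported value or within its spread, and 43 did not. With library totals zuo1 against WT with vehicle had 23 members higher (50% of genes) and 3 lower (13.6%). On that scale not5 against WT had 1 lower with vehicle (19.5%), and 38 higher (64.6%) and 3 lower (15.9%) with AZC. AZC in WT on flowcell 2 had 1 lower (31.7%), and the flowcell difference had 1 lower (0.517%). ECM29 then turned to 0.076 in not5 against WT with vehicle, and with AZC PRE8 turned to 0.44, PRE5 to 0.37, RPT2 to 0.067, RPT1 to 0.17, RPN9 to 0.19 and RPN6 to 0.52. The median CPM per kb of the 33 subunits became 234.2 and 400 in WT of flowcell 1 (vehicle and AZC), 267.6 in untreated zuo1, 244.3 and 366.8 in WT of flowcell 2, and 470.4 and 476.1 in not5. DESeq2 called 9 members higher with AZC in zuo1 (3.06% of genes) and 2 lower in the flowcell difference (2.12%). In 1 fit of all 32 libraries AZC in zuo1 had 8 higher (2.9%), AZC in WT on flowcell 2 had 1 lower (29.5%) and the flowcell difference 2 lower (0.888%).

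With library number as a replicate block, AZC in WT on flowcell 1 had 2 members lower (33.8% of genes), AZC in zuo1 7 higher (3.56%) and the flowcell difference 2 lower (1.19%). With a block within genotype AZC in zuo1 had 5 higher (3.86%), the not5 interaction 2 higher (35.5%) and the flowcell difference 5 lower (3.39%). In zuo1 the treated and untreated libraries of equal number correlated by 0.07 to 0.58, 3 of 4 over 0.1, and were not taken as pairs. With the length offset, added after the data were seen, AZC in WT had 2 members lower on flowcell 1 (34.1% of genes) and 1 on flowcell 2 (33.3%). AZC in zuo1 had 6 higher (2.66%), zuo1 against WT with vehicle 24 lower (28.8%), and the flowcell difference 1 lower (0.775%). Combined with the block these counts were, in the same order, 2 (36.2%), 1 (35.4%), 14 (4.29%), 25 (31.8%) and 1 (1.14%). In that fit not5 against WT with AZC had 29 lower (40.5%). PRE5 turned to -0.20 in zuo1 against WT with vehicle under the offset, with and without the block.

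With each library left out in turn, higher and lower calls of members ranged over 43 to 44 and 1 to 2 for AZC in WT on flowcell 1, 43 and 1 to 2 on flowcell 2, 2 to 7 and 0 in zuo1, and 0 and 0 in not5. In the same order, the shares of all genes were 30.9 to 32.6% and 29.6 to 31.2%, 27.7 to 29.5% and 33.2 to 34.7%, 1.73 to 2.9% and 0.121 to 0.828%, and 0% and 0%. Calls of members ranged over 10 to 14 and 13 to 16 for zuo1 against WT with vehicle, 2 to 4 and 35 to 37 with AZC, 40 to 41 and 3 for not5 with vehicle, and 10 to 12 and 18 to 19 with AZC. Those of all genes were 25.8 to 29.1% and 26.6 to 30.8%, 31.8 to 34.6% and 32.3 to 34.6%, 40.2 to 41.1% and 39.6 to 40.7%, and 39.4 to 40.5% and 37 to 38.9%. For the interactions the calls of members were 0 and 38 to 41 in zuo1, 1 to 2 and 43 in not5, and 0 and 0 to 2 for the flowcell difference. Those of all genes were 21.5 to 25.5% and 22.6 to 26.5%, 23.4 to 28.2% and 20.2 to 24.3%, and 0.0686 to 5.07% and 0.0173 to 3.79%. WT AZC library 4 of flowcell 1 gave the 2 lower members there, and WT AZC library 2 of flowcell 2 the 1. The cause was not tested. POC4, ADC17 and IRC25 had the fewest counts of the members, from 246 in the lowest library, so their differences are measured least precisely by counting.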
